A study of Homo sapiens with 15 samples.

Results

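Axon guidance genes encode the secreted and membrane-bound cues that steer growing nerve fibres, together with the receptors that read them. Of the 57820 gene identifiers counted in the series, 71 belong to this system, chosen by name alone from the semaphorin, plexin, neuropilin, ephrin, Eph receptor, netrin, *DCC*, *UNC5*, SLIT and ROBO families, with no measured value used. Testing covered the 68 members with an average of 1 count or more in a library, and *EPHA6*, *EPHA8* and *SLIT1* fell below that filter. RNA-seq was performed on A673, a cell line derived from an Ewing sarcoma that carries the EWS/FLI fusion transcription factor, in a knockdown and rescue (KD/rescue) design with 5 groups of 3 libraries. In iLuc an shRNA against luciferase was paired with an empty vector, and the cells kept their endogenous EWS/FLI (endo-EF), while in iEF the shRNA targeted EWS/FLI and the vector was again empty. The other groups received the same EWS/FLI shRNA followed by a cDNA in a retroviral pMSCV-hygro vector, which encoded wildtype EWS/FLI (WT-EF), a form without the EWS domain (Δ22), or a form in which tyrosines of the first repeats of the EWS domain, its degenerate hexapeptide repeats, were replaced by alanine (DAF). In all groups the shRNA was introduced on day 1 and the vector or cDNA on day 5, the cells were selected with 2 µg/mL puromycin and 400 µg/mL hygromycin B, and RNA was taken on day 16. All measurements therefore come from 1 cell line under double drug selection, and the labels number the libraries without saying whether they came from separate cultures, so the p-values measure the spread between these libraries. Since RNA was taken from whole cultures, fewer cells that expressed a gene and less RNA per cell cannot be told apart.

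Guidance cues work in ligand and receptor pairs. Semaphorins act mostly through plexins, and most of the secreted class 3 semaphorins need a neuropilin as co-receptor. Ephrins are anchored to the membrane and bind Eph receptor tyrosine kinases on neighbouring cells, with signals passing in both directions. Netrins attract through *DCC* and repel through *UNC5* receptors, and SLIT proteins repel through ROBO receptors. Outside the nervous system the same families steer neural crest, endothelial and tumour cells and regulate adhesion and cell shape.

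Total counts ranged from 28659475 to 41859880 per library (median 32943231). Levels are given as counts-per-million (CPM) values scaled by TMM factors, and differences are log2 fold changes from edgeR's quasi-likelihood test over 28793 genes with the replicate number as a block, called at a Benjamini-Hochberg adjusted p below 0.05. Reads assigned to *FLI1*, which include those of endo-EF and of any transduced construct, averaged 49.4 ± 2.62 CPM (SD, n = 3) in iLuc and 14.6 ± 1.44 in iEF, a log2 difference of 1.77 (adjusted p = 7.93e-09, edgeR). They averaged 17.6 ± 1.39 CPM in WT-EF, 31.2 ± 6.08 in Δ22 and 24.3 ± 2.64 in DAF. Over iEF this was called for Δ22 (1.09, adjusted p = 0.000446) and DAF (0.74, adjusted p = 0.000335) and not for WT-EF (0.27, adjusted p = 0.0538), and DAF was not called against Δ22 (−0.35, adjusted p = 0.128). WT-EF was called lower than DAF (−0.47, adjusted p = 0.00264) and lower than iLuc (−1.49, adjusted p = 6.2e-07). Reads of a construct and of remaining endo-EF cannot be told apart here, and the part of these levels in the results was not tested. The summed level of 6 Ewing sarcoma markers ran from 705 to 726 CPM in iLuc, 70.7 to 84.7 in iEF, 486 to 581 in WT-EF, 78.2 to 149 in Δ22 and 202 to 374 in DAF, although *CD99* was listed at 0.0782 CPM or less in every library. Markers of other cell types were low, at no more than 0.858 CPM summed for endothelial and 1.01 for blood cells, while the epithelial list summed to between 6.60 and 20.9 CPM.

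Depletion of endo-EF moved most of the guidance genes. Between iLuc and iEF, 20 of 68 tested members were called higher in iLuc and 29 lower, or 29.4% and 42.6%, where 19.5% and 22.1% of all tested genes were called in those directions. The median log2 difference of the tested members was −0.33 against 0.04 over all genes. All 49 of these calls had the same direction in each of the 3 replicate sets, and in 48 of them the 3 iLuc and 3 iEF libraries did not overlap, as was so for 99.3% and 97.5% of all called genes. Shares over all genes, here and below, include many genes with few counts, which were seldom called. Among the 17653 genes averaging at least 10 counts, 5302 were called higher and 5571 lower in iLuc. Both shares were thus higher there than over all tested genes, and 20 members were called higher and 27 lower. With WT-EF, 15 members were called higher and 20 lower than in iEF (12.9% and 17.0% of all genes). With DAF, 10 were higher and 8 lower (5.00% and 6.19% of all genes), and with Δ22, 2 were higher and 2 lower (0.472% and 0.830% of all genes). These comparisons use the same iEF libraries, so their values stand side by side and are not independent of each other. Tested by limma on the batch-adjusted values that the authors deposited, the split moved to 21 higher and 18 lower for WT-EF and to 11 higher and 4 lower for DAF. All genes moved the same way in that test, to 24.9% higher and 13.4% lower for WT-EF and 8.04% higher and 4.91% lower for DAF. Values in every library are given for the 24 members picked by a fixed rule on size and test (the largest changes of each comparison and the calls of DAF or Δ22 against iEF). *SEMA3A*, *SEMA3C*, *SEMA4B*, *SEMA5B*, *NRP1*, *NRP2*, *PLXNA1*, *PLXNA3*, *EFNA4*, *EFNB3*, *EPHA4*, *EPHA7*, *EPHB2*, *UNC5C*, *ROBO1*, *ROBO4*, *SLIT2*, *SLIT3* and *SEMA5A* fall outside that rule and were chosen after their values were seen.

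**Figure D1:**
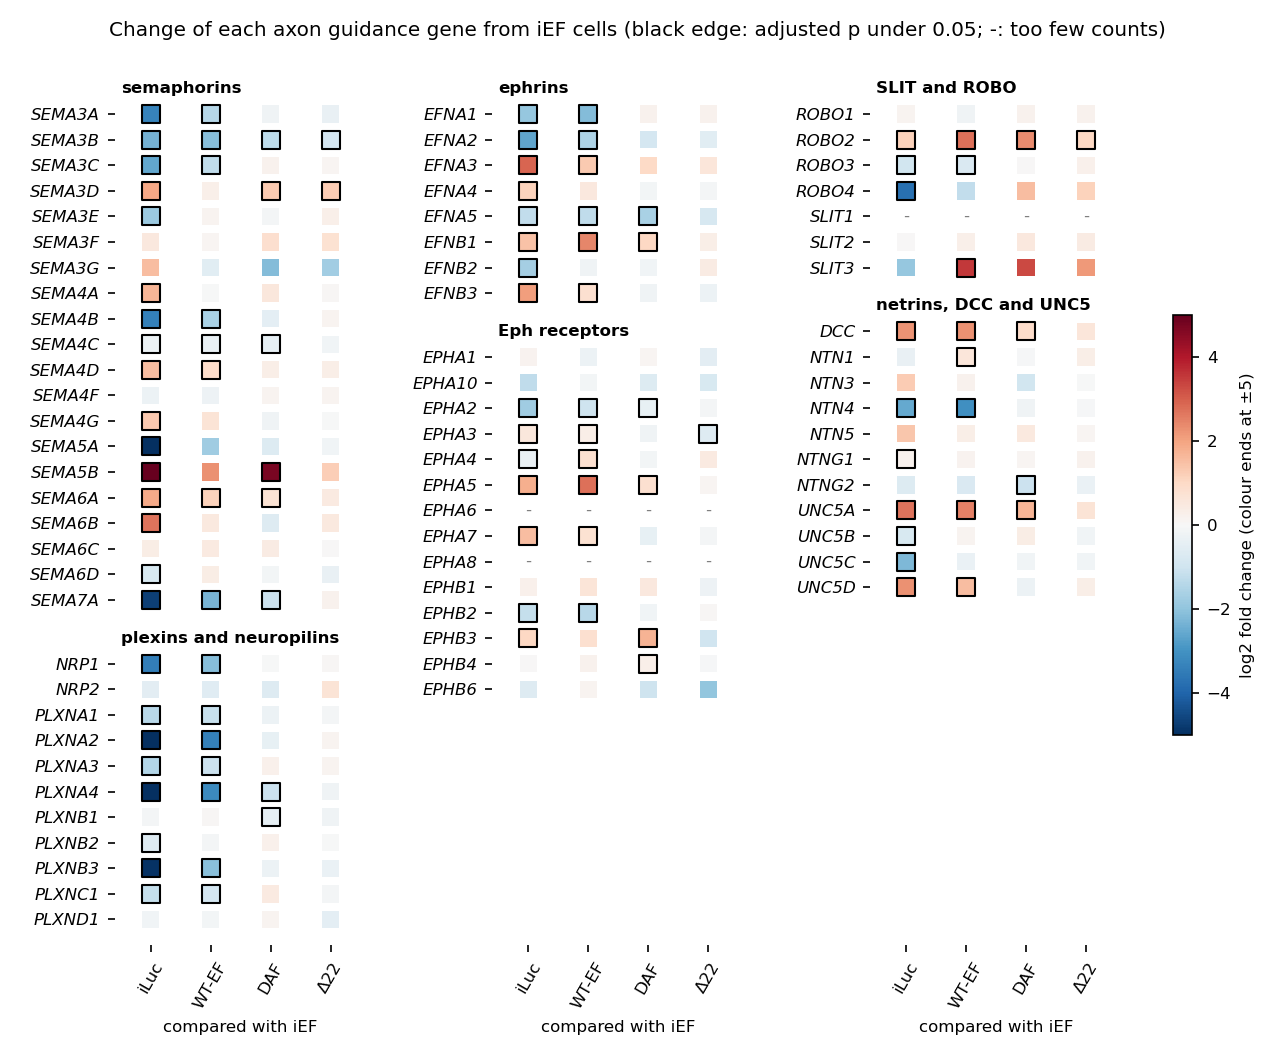
Log2 fold change against iEF of each guidance gene, by family, for iLuc, WT-EF, DAF and Δ22, with black edges marking adjusted p below 0.05 (edgeR), a dash marking genes with too few counts and colours ending at 5 in either direction. The column of iLuc holds the most edged squares (20 higher and 29 lower) and that of Δ22 the fewest (2 higher and 2 lower), and among plexins and neuropilins the edged squares are all lower than iEF.

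Most receptors for semaphorins were lower in iLuc than in iEF, as was the ligand *SEMA3A*. Among the 11 tested plexins and neuropilins, 8 were called lower and 0 higher in iLuc than in iEF, 0 also being higher at an unadjusted p below 0.05 and by DESeq2. Over all genes, 22.1% were called lower and 19.5% higher. The 4 A-type plexins, which pair with neuropilins to receive class 3 semaphorins, were all among the 8. The median log2 difference of the 11 receptors was −1.40, and it was −1.06 between WT-EF and iEF, where 7 were lower and 0 higher (0 higher at an unadjusted p and by DESeq2). Of the tested semaphorins, which number 20, 7 were higher and 9 lower in iLuc, so ligands moved in both directions while receptors moved in 1.

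*SEMA3A* encodes the secreted semaphorin best known for collapsing growth cones and lies on chromosome 7 at 83585093 to 84122040 on the minus strand of GRCh37 (hg19), the build of the files. Its level was 52.8, 51.6 and 52.7 CPM in the iLuc libraries, 526, 492 and 561 in iEF, 220, 201 and 172 in WT-EF, 419, 358 and 450 in Δ22, and 455, 404 and 493 in DAF. The groups fell into 3 bands without overlap, with iLuc lowest, WT-EF between, and iEF, Δ22 and DAF high. Against iEF the log2 difference was −3.33 (SE 0.11, adjusted p = 1.03e-10, edgeR) in iLuc and −1.41 (SE 0.10, adjusted p = 2.49e-07) in WT-EF. WT-EF stood 1.92 above iLuc (adjusted p = 1.02e-07) and 1.19 below DAF on the log2 scale (−1.19, adjusted p = 2.95e-06), so the wildtype cDNA brought *SEMA3A* down only part of the way to its level with endo-EF.

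*NRP1*, the neuropilin that serves as co-receptor for SEMA3A and for some vascular growth factors, showed the same order. It lies on chromosome 10 at 33466420 to 33625190, minus strand. It was at 34.8, 42.5 and 35.1 CPM in iLuc, 410, 356 and 456 in iEF, 120, 110 and 50.9 in WT-EF, 418, 415 and 437 in Δ22, and 407, 374 and 427 in DAF. Every WT-EF library lay above every iLuc library and below every library of the other groups. Against iEF the log2 difference was −3.45 (SE 0.24, adjusted p = 3.96e-08) in iLuc and −2.15 (SE 0.23, adjusted p = 5.43e-06) in WT-EF, and WT-EF lay 2.13 below DAF (−2.13, adjusted p = 1.19e-05). The difference of 1.30 between WT-EF and iLuc (adjusted p = 0.000887) lost its call when the libraries of replicate 1 were left out (1.04, adjusted p = 0.0557). *NRP2*, the other neuropilin, was at 4.62, 4.63 and 2.51 CPM in iLuc and 4.41, 6.07 and 10.3 in iEF, and no comparison called it. In Δ22 it read 3.25, 6.75 and 32.9 CPM, replicate 3 standing far above the others.

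The A-type plexins spanned a wide range of change. *PLXNA2*, on chromosome 1 at 208195587 to 208417729, minus strand, was at 0.336, 0.224 and 0.0597 CPM in iLuc, 26.1, 17.7 and 28.6 in iEF, 3.82, 2.80 and 0.639 in WT-EF, 28.2, 31.0 and 23.0 in Δ22, and 16.7, 19.1 and 18.8 in DAF. It was nearly silent with endo-EF, and WT-EF lay between iLuc and the rest without overlap. Against iEF the log2 difference was −6.89 (SE 0.53, adjusted p = 1.00e-07) in iLuc and −3.41 (SE 0.39, adjusted p = 1.25e-05) in WT-EF. *PLXNA4*, a receptor for SEMA3A in sensory neurons, went from 13.9, 14.8 and 12.5 CPM in iEF to 0.214, 0.0842 and 0.179 in iLuc, with 2.71, 1.77 and 0.506 in WT-EF, 14.9, 13.4 and 8.90 in Δ22, and 8.08, 7.73 and 4.66 in DAF. All DAF libraries lay below all iEF libraries, and all WT-EF libraries lay below both. The log2 difference was −6.46 (SE 0.40, adjusted p = 1.51e-08) for iLuc, −3.18 (SE 0.30, adjusted p = 2.04e-06) for WT-EF and −1.07 (SE 0.27, adjusted p = 0.0181) for DAF, the last of which was called in 15 of 24 alternatives and not, for example, without iEF replicate 2 (0.0513), iEF replicate 3 (0.115), DAF replicate 1 (0.0823), DAF replicate 2 (0.0671) or DAF replicate 3 (0.0857). *PLXNA1* moved less, from 123, 131 and 152 CPM in iEF to 49.7, 53.9 and 49.3 in iLuc and 66.9, 58.6 and 56.2 in WT-EF, with log2 differences of −1.40 (adjusted p = 1.53e-07) and −1.15 (adjusted p = 2.68e-06). *PLXNA3* read 15.7, 17.7 and 19.0 CPM in iEF and 6.63, 6.79 and 5.49 in iLuc, a log2 difference of −1.48 (SE 0.14, adjusted p = 1.10e-06). No iLuc library of these 4 plexins reached the lowest iEF library.

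**Figure D2:**
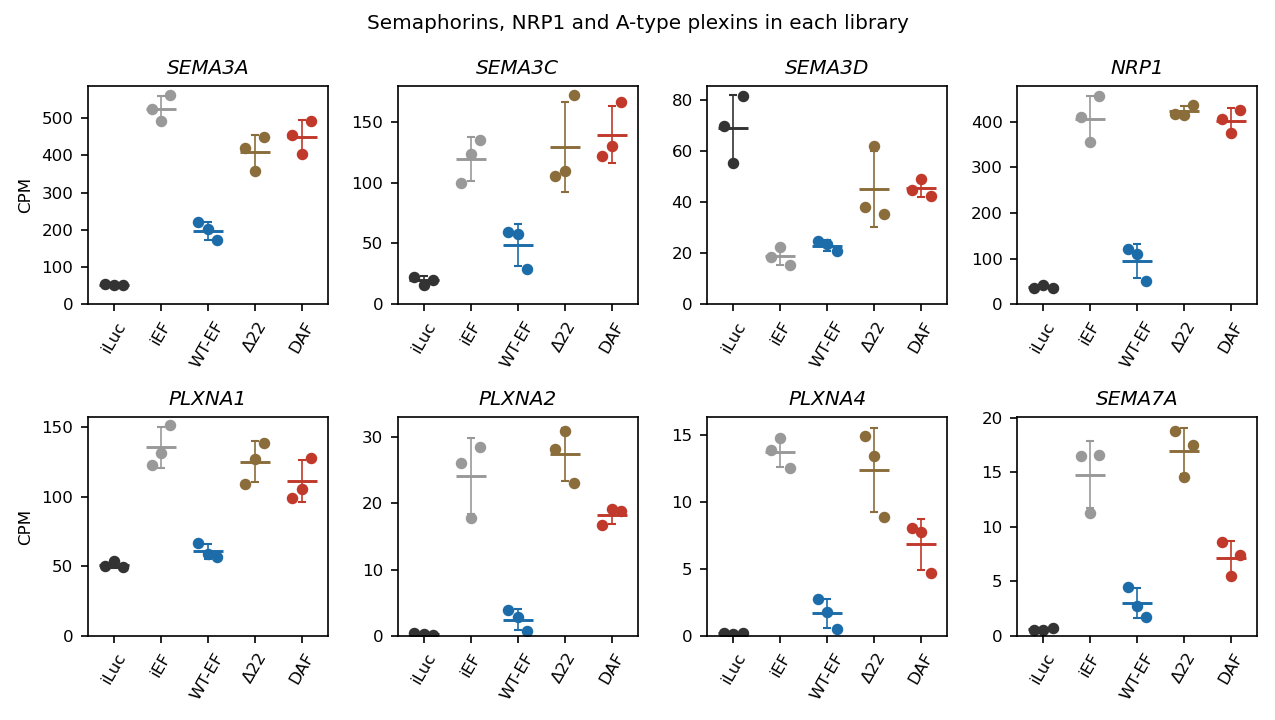
Level in CPM, on linear axes from 0, of 8 genes of the semaphorin system in the 5 groups (points, 3 libraries; line, mean; bar, SD). *SEMA3A*, *SEMA3C*, *NRP1*, *PLXNA1*, *PLXNA2*, *PLXNA4* and *SEMA7A* are lowest in iLuc with WT-EF next, while *SEMA3D* is highest in iLuc.

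Other class 3 semaphorins did not all follow *SEMA3A*. Of the 7 tested, 4 were lower in iLuc than in iEF, 1 was higher and 2 were not called (22.1% lower and 19.5% higher over all genes). *SEMA3C*, a secreted ligand that guides cardiac neural crest cells, was at 22.6, 15.8 and 20.2 CPM in iLuc, 99.5, 124 and 135 in iEF, 59.3, 57.8 and 28.5 in WT-EF, 105, 110 and 172 in Δ22, and 122, 131 and 166 in DAF. Its log2 difference from iEF was −2.61 (SE 0.27, adjusted p = 1.87e-06) in iLuc and −1.28 (SE 0.26, adjusted p = 0.00144) in WT-EF, with no overlap between these groups. *SEMA3D* went the other way, at 69.8, 55.4 and 81.7 CPM in iLuc and 18.3, 22.3 and 15.3 in iEF (log2 difference 1.92, SE 0.19, adjusted p = 1.39e-06). WT-EF, at 24.7, 23.4 and 20.6 CPM, was not called against iEF, whereas DAF at 44.8, 49.1 and 42.5 and Δ22 at 38.0, 62.0 and 35.2 lay above every iEF and WT-EF library. DAF differed from iEF by 1.29 (SE 0.19, adjusted p = 0.000541) and Δ22 by 1.26 (SE 0.19, adjusted p = 0.00617). The Δ22 call was lost without replicate 1 (adjusted p = 0.0605) and without replicate 2 (0.134). WT-EF was lower than DAF by 0.99 on the log2 scale (−0.99, adjusted p = 0.00107). *SEMA3B* was at 1.13, 0.701 and 0.746 CPM in iLuc, 4.47, 5.02 and 3.72 in iEF, 0.997, 0.846 and 1.20 in WT-EF, 2.11, 2.45 and 2.32 in Δ22, and 1.79, 1.74 and 1.84 in DAF. All 4 groups lay below every iEF library, with log2 differences of −2.36 for iLuc (adjusted p = 1.03e-06), −2.11 for WT-EF (5.72e-06), −1.29 for DAF (0.00142) and −0.94 for Δ22 (0.0432). The DAF call was lost without replicate 2 (adjusted p = 0.0506), and the Δ22 call held in 11 of 24 alternatives and was lost without any 1 of the 9 libraries of iEF, Δ22 or DAF (adjusted p from 0.0648 to 0.164).

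The membrane-bound semaphorins were also divided. *SEMA7A*, which is tethered by a lipid anchor and signals through integrins and PLXNC1, was at 0.489, 0.477 and 0.716 CPM in iLuc, 16.5, 11.2 and 16.6 in iEF, 4.43, 2.72 and 1.70 in WT-EF, 18.7, 14.6 and 17.5 in Δ22, and 8.54, 5.49 and 7.38 in DAF. This was the order iLuc, WT-EF, DAF and then iEF with Δ22, without overlap between successive steps. Against iEF the log2 difference was −4.70 (SE 0.28, adjusted p = 1.06e-08) in iLuc, −2.34 (SE 0.23, adjusted p = 3.53e-06) in WT-EF and −1.05 (SE 0.22, adjusted p = 0.00617) in DAF, the last being lost without replicate 2 (0.112). *SEMA4B* fell from 24.1, 26.5 and 23.6 CPM in iEF to 2.66, 2.33 and 1.97 in iLuc and 12.5, 6.92 and 5.64 in WT-EF, with log2 differences of −3.42 (SE 0.25, adjusted p = 7.5e-08) and −1.61 (adjusted p = 8.49e-05). *SEMA6A* rose from 1.47, 2.02 and 1.63 CPM in iEF to 4.95, 5.58 and 8.66 in iLuc and 3.49, 3.62 and 4.13 in WT-EF, by 1.89 (SE 0.21, adjusted p = 3.38e-06) and 1.14 (adjusted p = 0.000666). Its Δ22 libraries, at 1.96, 2.89 and 2.11 CPM, overlapped iEF. *SEMA6B*, another class 6 member, read 4.49, 6.42 and 4.15 CPM in iLuc and 0.499, 1.11 and 0.989 in iEF (log2 difference 2.72, SE 0.45, adjusted p = 0.000177), and WT-EF at 0.471, 1.06 and 2.53, Δ22 at 0.381, 1.15 and 2.61 and DAF at 0.176, 0.448 and 1.24 CPM overlapped iEF. *SEMA5B*, which had few counts, read 2.29, 2.16 and 3.73 CPM in iLuc, 0.0788, 0.169 and 0 in iEF, 0.111, 0.661 and 0.506 in WT-EF, and 0.316, 2.95 and 4.73 in DAF. In Δ22 it read 0.0879, 0.209 and 0.322 CPM. The DAF libraries were widely spread, yet each lay above every iEF library (adjusted p = 0.00105). DAF replicate 1 lay below Δ22 replicate 3 and below WT-EF replicates 2 and 3.

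Ephrins split evenly. In iLuc, 4 of 8 tested ephrins were higher and 4 lower than in iEF (19.5% and 22.1% of all genes). With WT-EF, 3 were higher and 3 lower (12.9% and 17.0% of all genes). *EFNB1*, on chromosome X at 68048864 to 68062003, plus strand, encodes a B-type ephrin that signals into its own cell and acts in neural crest derivatives. It was at 66.4, 55.3 and 60.6 CPM in iLuc, 20.9, 27.7 and 18.5 in iEF, 138, 130 and 95.2 in WT-EF, 20.3, 34.3 and 29.3 in Δ22, and 36.3, 51.4 and 48.5 in DAF. WT-EF exceeded iLuc in every library, and DAF lay between iLuc and iEF. The log2 difference from iEF was 1.47 (SE 0.18, adjusted p = 1.36e-05) in iLuc, 2.45 (SE 0.19, adjusted p = 4.31e-07) in WT-EF and 1.03 (SE 0.18, adjusted p = 0.00237) in DAF, and WT-EF stood 0.98 above iLuc (adjusted p = 0.0015).

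*EFNA3* rose with endo-EF from 0.578, 0.809 and 0.640 CPM in iEF to 4.43, 6.48 and 4.39 in iLuc (log2 difference 2.92, SE 0.30, adjusted p = 1.94e-06). WT-EF, at 0.858, 1.66 and 2.64 CPM, was 1.29 above iEF (adjusted p = 0.00518), a call lost without replicate 3 (0.0518). It read 0.938, 0.834 and 1.29 CPM in Δ22 and 0.984, 1.56 and 1.51 in DAF, below every iLuc library. Of its exon bases, 43.9% also belong to the *EFNA4-EFNA3* readthrough gene on the same strand, so its reads cannot be fully assigned. *EFNB3* read 12.4, 12.3 and 14.8 CPM in iLuc and 2.42, 4.25 and 2.97 in iEF (2.08, SE 0.24, adjusted p = 5.69e-06). *EFNA5* moved down in 3 of the groups. It was at 14.2, 19.3 and 10.7 CPM in iLuc, 35.5, 34.4 and 34.1 in iEF, 14.8, 13.6 and 14.7 in WT-EF, 22.3, 12.9 and 24.1 in Δ22, and 13.2, 8.39 and 12.8 in DAF, so that every library of the other groups lay below iEF. The log2 difference was −1.22 for iLuc (SE 0.23, adjusted p = 0.000562), −1.27 for WT-EF (adjusted p = 0.000643) and −1.61 for DAF (SE 0.23, adjusted p = 0.000513). *EFNA1*, an A-type ephrin that binds EPHA2, read 0.642, 1.09 and 0.716 CPM in iLuc, 2.39, 4.25 and 2.47 in iEF, and 0.775, 0.528 and 0.825 in WT-EF. Both iLuc and WT-EF lay below iEF, by −1.92 (SE 0.50, adjusted p = 0.00576) and −2.16 (adjusted p = 0.00431), the latter lost without replicate 2 (0.054).

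Among 12 tested Eph receptors, 4 were higher and 3 lower in iLuc than in iEF (19.5% and 22.1% of all genes), and 4 and 2 with WT-EF (12.9% and 17.0%). *EPHA2*, a receptor tyrosine kinase common in epithelial and tumour cells, was the strongest member of this family per kilobase in iEF. It was at 51.0, 54.0 and 59.0 CPM in iLuc, 170, 175 and 213 in iEF, 91.9, 99.5 and 77.0 in WT-EF, 156, 168 and 200 in Δ22, and 127, 133 and 157 in DAF. Both iLuc and WT-EF lay below all the other groups, by log2 differences from iEF of −1.76 (SE 0.12, adjusted p = 2.48e-08) and −1.04 (adjusted p = 7.36e-06). *EPHB2* followed it, at 10.9, 12.0 and 17.4 CPM in iLuc, 27.5, 28.9 and 34.8 in iEF, and 12.6, 9.80 and 11.7 in WT-EF, with log2 differences of −1.20 (adjusted p = 3.19e-06) and −1.40 (adjusted p = 1.97e-06).

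*EPHA5*, a receptor of the developing brain, was higher in iLuc and WT-EF than in iEF. It read 11.5, 17.1 and 11.2 CPM in iLuc, 3.78, 3.47 and 3.75 in iEF, 20.5, 30.7 and 24.8 in WT-EF, 3.99, 6.39 and 2.18 in Δ22, and 6.50, 8.65 and 4.93 in DAF. WT-EF was above iLuc in every library, as it was for *EFNB1*. The log2 difference from iEF was 1.80 in iLuc (SE 0.22, adjusted p = 1.21e-05) and 2.75 in WT-EF (SE 0.23, adjusted p = 6.98e-07). WT-EF stood 0.95 above iLuc (adjusted p = 0.00514), a call lost without replicate 1 (0.0714). An antisense gene, *EPHA5-AS1*, covers 5.44% of its exon bases, and strand use in counting is not given in the sources used here. *EPHA7* read 41.1, 61.2 and 39.5 CPM in iLuc, 16.3, 19.0 and 13.1 in iEF and 12.2, 12.4 and 11.6 in DAF. It was 1.54 higher in iLuc than in iEF (SE 0.22, adjusted p = 4.23e-05). *EPHA3* was at 56.0, 58.4 and 57.7 CPM in iEF, 85.0, 92.3 and 81.2 in iLuc, 33.1, 43.3 and 34.6 in Δ22, 63.4, 80.8 and 75.6 in WT-EF, and 44.1, 57.3 and 48.8 in DAF. Its Δ22 libraries were the lowest of all groups (log2 difference from iEF −0.64, SE 0.09, adjusted p = 0.00421), a call lost without replicate 1 (0.0774) and without replicate 2 (0.168). *EPHA4* was at 94.1, 109 and 99.1 CPM in iEF, 117, 214 and 205 in WT-EF, and 86.6, 103 and 84.1 in DAF. WT-EF stood 0.79 above iEF (SE 0.13, adjusted p = 0.000212) and stood 1.16 above iLuc (adjusted p = 2.93e-05), whose libraries read 64.2, 92.2 and 81.0 CPM. The Δ22 libraries, at 120, 158 and 137 CPM, also lay above every iEF library and overlapped WT-EF, though Δ22 was not called against iEF. In iLuc *EPHA4* was called lower than in iEF (−0.36, adjusted p = 0.0292, edgeR), a call lost in 7 of 24 alternatives.

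**Figure D3:**
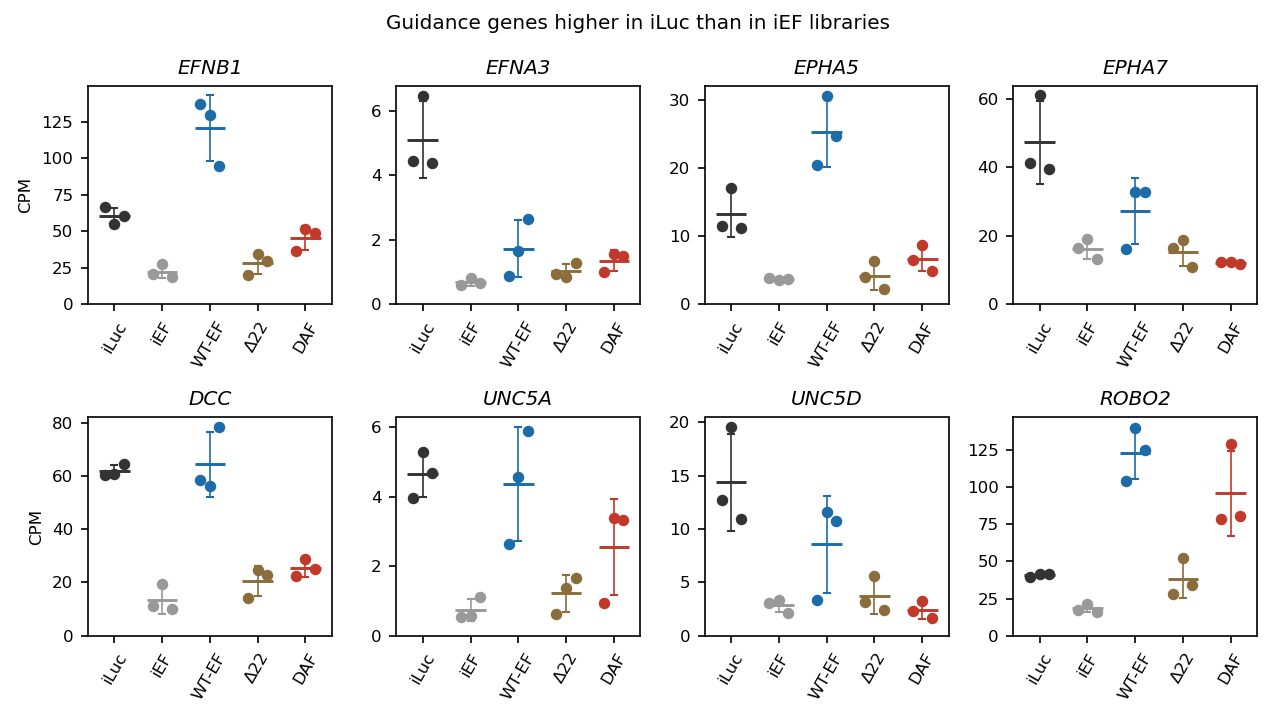
Level in CPM, on linear axes from 0, of 8 guidance genes higher in iLuc than in iEF, in the 5 groups (points, 3 libraries; line, mean; bar, SD). *EFNB1*, *EPHA5* and *ROBO2* are highest in WT-EF, while *EFNA3*, *EPHA7* and *UNC5D* are highest in iLuc.

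Of 11 tested netrins and netrin receptors, 4 were higher and 3 lower in iLuc than in iEF (19.5% and 22.1% of all genes). The receptors *DCC*, *UNC5A* and *UNC5D* were higher in iLuc while the ligand *NTN4* was lower. *DCC*, the receptor through which netrin attracts axons, was at 60.2, 61.0 and 64.7 CPM in iLuc, 11.0, 19.5 and 9.95 in iEF, 58.6, 56.3 and 78.5 in WT-EF, 14.0, 24.6 and 22.8 in Δ22, and 22.4, 28.6 and 24.9 in DAF. The iLuc and WT-EF libraries overlapped, and DAF lay between them and iEF. The log2 difference from iEF was 2.23 in iLuc (SE 0.21, adjusted p = 6.72e-07), 2.29 in WT-EF (SE 0.21, adjusted p = 1.57e-06) and 0.93 in DAF (SE 0.20, adjusted p = 0.00847), the last lost without replicate 1 (0.0934). *UNC5A*, a repulsive netrin receptor on chromosome 5 at 176237520 to 176307899, plus strand, read 3.97, 5.27 and 4.69 CPM in iLuc, 0.526, 0.573 and 1.11 in iEF, 2.63, 4.57 and 5.88 in WT-EF, 0.615, 1.38 and 1.64 in Δ22, and 0.949, 3.38 and 3.32 in DAF. Its log2 difference from iEF was 2.72 in iLuc (SE 0.30, adjusted p = 3.46e-06), 2.54 in WT-EF (SE 0.30, adjusted p = 1.44e-05) and 1.71 in DAF (SE 0.30, adjusted p = 0.00217), the last lost without replicate 2 (0.106). DAF replicate 1 overlapped iEF. *UNC5D*, at 12.7, 19.6 and 10.9 CPM in iLuc and 3.07, 3.37 and 2.12 in iEF, differed by 2.29 (SE 0.33, adjusted p = 4.76e-05). Its WT-EF libraries were spread over 3.30, 11.6 and 10.8 CPM, with 3.19, 5.63 and 2.39 in Δ22 and 2.28, 3.22 and 1.64 in DAF, so that WT-EF replicates 2 and 3 and Δ22 replicate 2 lay above all iEF libraries and the rest did not.

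The *UNC5* receptors did not all move in the same direction. Of their 4 tested members, 2 were higher and 2 lower in iLuc than in iEF, and *UNC5C* read 1.34, 1.88 and 1.19 CPM in iLuc against 4.20, 9.07 and 8.46 in iEF (log2 difference −2.27, SE 0.24, adjusted p = 2.17e-06). In WT-EF it was at 3.57, 7.35 and 6.10 CPM, overlapping iEF. *NTN4*, a secreted netrin of basement membranes, was at 18.8, 37.1 and 24.2 CPM in iLuc, 205, 92.7 and 197 in iEF, 20.5, 20.5 and 16.5 in WT-EF, 196, 119 and 161 in Δ22, and 164, 110 and 148 in DAF. WT-EF returned it to the range of iLuc or below, and Δ22 and DAF stayed within the range of iEF. The log2 difference from iEF was −2.56 in iLuc (SE 0.30, adjusted p = 6.17e-06) and −3.07 in WT-EF (SE 0.30, adjusted p = 3.08e-06). Replicate 2 of iEF was the lowest of its group.

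Of the 6 tested SLIT and ROBO genes, 1 was higher and 2 were lower in iLuc than in iEF (19.5% and 22.1% of all genes). *ROBO2*, a SLIT receptor on chromosome 3 at 75955846 to 77699115, plus strand, was at 39.8, 41.6 and 41.4 CPM in iLuc, 17.6, 21.6 and 16.2 in iEF, 105, 140 and 125 in WT-EF, 27.8, 52.5 and 34.4 in Δ22, and 78.3, 129 and 80.3 in DAF. Every library of the other groups lay above every iEF library, and WT-EF and DAF both lay above iLuc. The log2 difference from iEF was 1.17 in iLuc (SE 0.14, adjusted p = 8.69e-06), 2.74 in WT-EF (SE 0.15, adjusted p = 3.46e-08), 2.35 in DAF (SE 0.14, adjusted p = 1.94e-06) and 1.02 in Δ22 (SE 0.14, adjusted p = 0.00421), the last lost without replicate 2 (0.168). *ROBO1*, the receptor with the higher level, read 174, 185 and 195 CPM in iLuc and 159, 169 and 181 in iEF, and their ranges overlapped. *SLIT2*, a secreted ligand of both, read 45.9, 42.1 and 45.0 CPM in iLuc and 32.9, 47.9 and 59.1 in iEF and was not called in any comparison, with replicate 3 of Δ22 at 118 and of DAF at 114 CPM. *SLIT3* had 0 counts in every iLuc library, and *SEMA5A* likewise, so the level of *SEMA5A* with endo-EF lay at least 2.54-fold below that of iEF at a floor of 3 counts per library.

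Levels between genes were compared as CPM per kilobase of exon. In iEF the highest members were *SEMA3A* at 56.8 ± 3.76 (SD, n = 3), *EPHA2* at 44.9 ± 5.64, *NTN4* at 37.8 ± 14.3, *NRP1* at 35.3 ± 4.36 and *SEMA3C* at 19.6 ± 3.01 CPM per kilobase. *EPHA2* and *NRP1* lay within 1 SD of *NTN4*. All of these were lower in iLuc, where the leading members were *EFNB1* at 18.4 ± 1.67, *ROBO1* at 16.7 ± 0.942, *NTNG1* at 15.1 ± 0.249 and *EPHA2* at 13.2 ± 0.983 CPM per kilobase. In WT-EF the order opened with *EFNB1* at 36.6 ± 6.84, while Δ22 and DAF both opened with *SEMA3A*, at 44.2 ± 5.06 and 48.7 ± 4.83 CPM per kilobase.

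**Figure D4:**
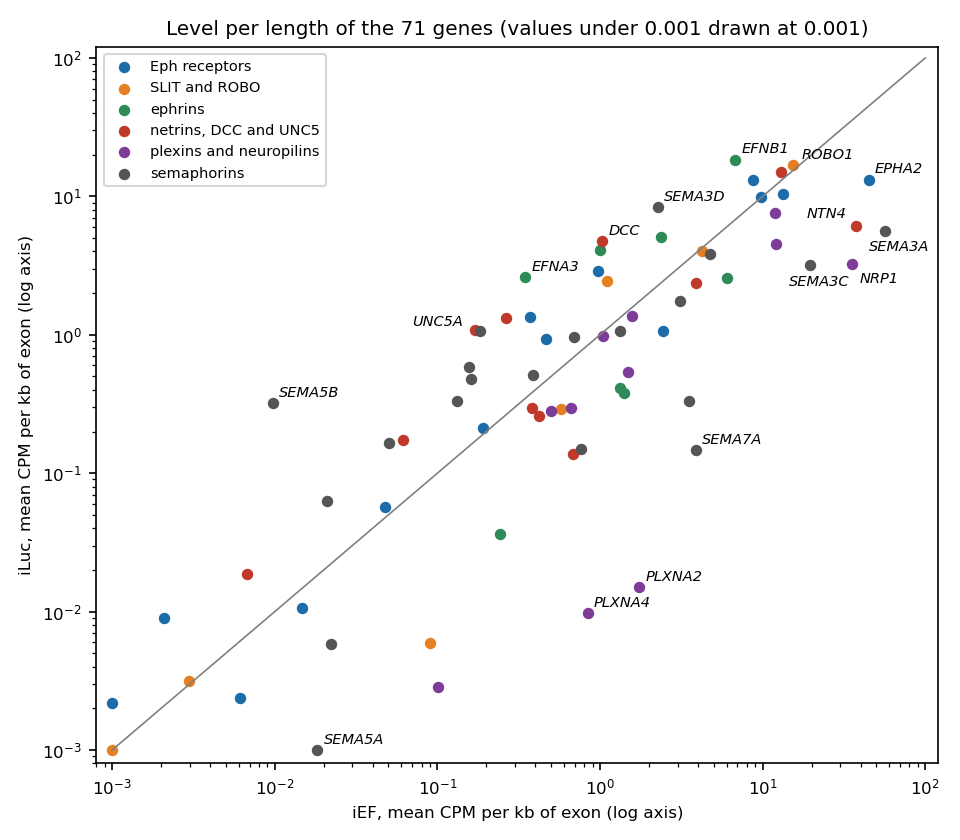
Mean level of each member in iEF (horizontal) and iLuc (vertical), in CPM per kilobase of exon on log axes, with values below 0.001 drawn at 0.001. *SEMA3A*, *NTN4* and *NRP1* lie far below the line of equal levels, at 56.8, 37.8 and 35.3 in iEF, and *EFNB1* lies above it.

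Rescue with WT-EF was compared directly with endo-EF. Between WT-EF and iLuc, 21 of 68 members were called higher and 10 lower (10.7% and 9.03% of all genes). Plexins and neuropilins gave 5 of the higher calls and 0 lower calls, with 0 lower at an unadjusted p below 0.05 and by DESeq2. Besides *SEMA3A* and *NRP1*, *PLXNA2* was higher in WT-EF by 3.48 (SE 0.57, adjusted p = 0.000674), *PLXNA4* by 3.28 (adjusted p = 0.000147) and *SEMA7A* by 2.36 (adjusted p = 6.67e-05). Among genes higher with endo-EF, WT-EF was lower than iLuc for *SEMA6B* by −2.23 (SE 0.44, adjusted p = 0.00229), *SEMA3D* by −1.61 (adjusted p = 5.36e-05) and *EFNA3* by −1.63 (adjusted p = 0.000836). *SEMA6B* lost its call without replicate 1 (0.0639) and without replicate 2 (0.0871). *ROBO2* stood 1.57 above iLuc (adjusted p = 5.79e-06), so overshoot and shortfall both occurred.

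WT-EF and DAF, which differ in the tyrosines of the EWS domain, were also compared directly. Their *FLI1* reads differed as well (−0.47 in WT-EF, adjusted p = 0.00264, edgeR), so tyrosines and construct level cannot be told apart. Here 15 members were higher in WT-EF and 24 lower (12.4% and 16.1% of all genes), and by limma on the batch-adjusted values 18 were higher and 19 lower (20.6% and 14.2% of all genes). Plexins and neuropilins accounted for 8 of the lower calls and semaphorins for another 8. Among members averaging at least 50 counts, the largest decreases in WT-EF were those of *PLXNA2* (−2.99, SE 0.39, adjusted p = 5.51e-05), *NTN4* (−2.85, SE 0.30, adjusted p = 1.08e-05) and *EFNA1* (−2.37, SE 0.50, adjusted p = 0.00238). All 3 were called lower in WT-EF than in iEF and none was called between DAF and iEF. *EFNA1* read 2.00, 2.16 and 8.52 CPM in DAF and 2.61, 2.09 and 7.50 in Δ22, replicate 3 standing apart in both. In the other direction *EPHA5* was 1.94 higher in WT-EF than in DAF (adjusted p = 1.86e-05), *UNC5D* 1.84 (SE 0.34, adjusted p = 0.000836), *EFNB1* 1.42 (SE 0.18, adjusted p = 5.22e-05) and *DCC* 1.36 (adjusted p = 0.000148). *ROBO2* differed by 0.39 (adjusted p = 0.0449), and this small difference lost its call without any 1 of 9 libraries, for instance WT-EF replicate 3 (adjusted p = 0.16) or DAF replicate 3 (0.204).

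**Figure D5:**
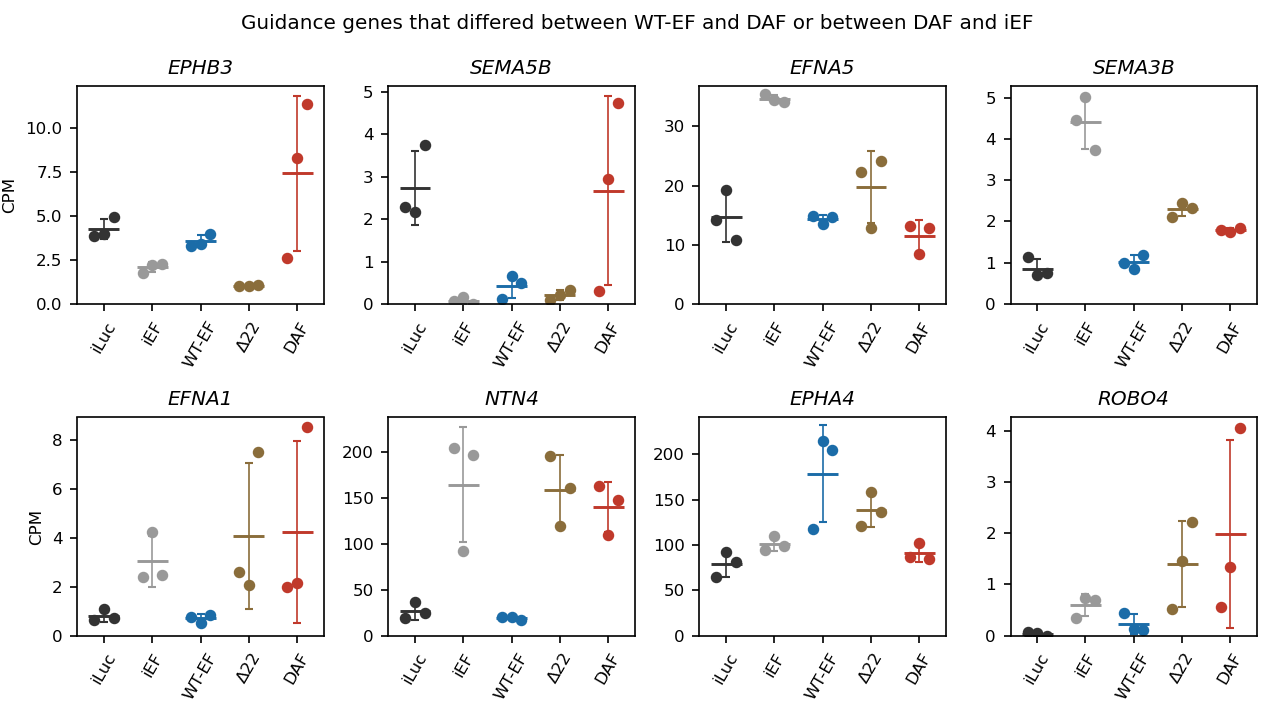
Level in CPM, on linear axes from 0, of 8 guidance genes called between WT-EF and DAF or between DAF and iEF, in the 5 groups (points, 3 libraries; line, mean; bar, SD). *NTN4* is at 16.5 to 20.5 in WT-EF and at 110 to 164 in DAF, and *EPHB3*, *SEMA5B* and *ROBO4* are widely spread in DAF.

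*EPHB3* and *SEMA5B* were called higher in DAF than in each of iEF, WT-EF and Δ22. For *SEMA5B*, DAF replicate 1, at 0.316 CPM, lay within the ranges of WT-EF and of Δ22. *EPHB3*, a B-type Eph receptor, was at 3.88, 3.96 and 4.93 CPM in iLuc, 1.76, 2.23 and 2.30 in iEF, 3.32, 3.44 and 3.99 in WT-EF, 1.03, 1.04 and 1.07 in Δ22, and 2.64, 8.31 and 11.3 in DAF. DAF replicates 2 and 3 lay above all other libraries, and replicate 1 lay below those of WT-EF. DAF differed from iEF by 1.74 (SE 0.30, adjusted p = 0.00209) and from Δ22 by 2.72 (SE 0.33, adjusted p = 0.000726), and both calls were lost without replicate 2 (0.0809 and 0.0796). WT-EF was lower than DAF by 0.95 on the log2 scale (−0.95, adjusted p = 0.0239), a call lost without WT-EF replicate 2 (0.0955), WT-EF replicate 3 (0.0828), DAF replicate 2 (0.118) or DAF replicate 3 (0.199). *ROBO4* read 0.562, 1.35 and 4.06 CPM in DAF, 0.527, 1.46 and 2.22 in Δ22 and 0.342, 0.742 and 0.698 in iEF. It read 0.443, 0.132 and 0.107 CPM in WT-EF and 0.0611, 0.0561 and 0 in iLuc. Its DAF and Δ22 libraries overlapped, and 18.0% of its exon bases lie opposite another gene. Over all members, DAF was higher than Δ22 for 5 and lower for 2 (0.948% and 0.379% of all genes). *ROBO2* was 1.33 higher in DAF than in Δ22 (adjusted p = 0.000337), *SEMA5B* 3.52 (SE 0.65, adjusted p = 0.0142) and *SEMA7A* −1.26 (adjusted p = 0.00946). The *SEMA5B* call was lost without DAF replicate 2 (0.076), DAF replicate 3 (0.125) or any of the Δ22 replicates 1, 2 and 3 (0.058, 0.0814 and 0.0785), and that of *SEMA7A* without Δ22 replicate 3 (0.0534), DAF replicate 2 (0.0951) or DAF replicate 3 (0.0551).

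The other calls between DAF and iEF were small or rested on few libraries. *SEMA4C*, a class 4 semaphorin, read 20.8, 22.1 and 22.6 CPM in DAF and 26.6, 31.1 and 31.1 in iEF, a log2 difference of −0.44 (SE 0.10, adjusted p = 0.00901) that lost its call without DAF replicate 2 (0.085). It read 22.4, 26.6 and 22.6 CPM in iLuc, 18.9, 24.8 and 24.9 in WT-EF and 24.5, 27.9 and 25.1 in Δ22. *EPHB4* read 68.7, 80.6 and 81.5 CPM in DAF and 61.7, 67.3 and 60.4 in iEF, a log2 difference of 0.28 (SE 0.08, adjusted p = 0.0255) that was lost without iEF replicate 1 (0.0563), iEF replicate 3 (0.129), DAF replicate 2 (0.0943) or DAF replicate 3 (0.146). The other groups held *EPHB4* at 62.7, 64.0 and 65.5 CPM (iLuc), 70.3, 73.6 and 74.0 (WT-EF) and 59.3, 62.1 and 61.6 (Δ22). *EPHA2* (−0.42, SE 0.11, adjusted p = 0.0247), *EPHA5* (0.81, SE 0.23, adjusted p = 0.0314) and *SEMA6A* (0.74, SE 0.21, adjusted p = 0.0344; 2.28, 3.22 and 3.09 CPM in DAF) lost their calls without any 1 DAF library (adjusted p from 0.056 to 0.139) and without iEF replicate 1 (from 0.0652 to 0.0909). Leaving out iEF replicate 3 also ended the calls of *EPHA2* (0.134) and *SEMA6A* (0.149), and iEF replicate 2 those of *EPHA5* (0.148) and *SEMA6A* (0.0551). *PLXNB1*, a receptor for SEMA4D, read 8.58, 6.78 and 7.31 CPM in DAF and 9.28, 10.6 and 10.8 in iEF (−0.44, SE 0.13, adjusted p = 0.0417), and its call held in 4 of 24 alternatives. Its iLuc libraries read 9.96, 8.81 and 9.97, WT-EF 9.80, 10.2 and 11.7, and Δ22 8.32, 8.60 and 9.50 CPM. *NTNG2*, a netrin-like protein anchored to the membrane, read 0.773, 0.897 and 1.41 CPM in DAF and 1.97, 2.53 and 1.86 in iEF (−1.07, SE 0.33, adjusted p = 0.0497), and its call held in 9 of 24. It read 1.16, 1.85 and 0.896 CPM in iLuc, 1.19, 1.00 and 1.57 in WT-EF and 1.41, 1.28 and 2.54 in Δ22. In *SEMA4C*, *EPHB4*, *EPHA2*, *EPHA5*, *SEMA6A*, *PLXNB1* and *NTNG2* the DAF and iEF libraries did not overlap, as was so for 95% of all genes called in this comparison.

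EWS/FLI is known to bind GGAA repeats, and promoters of the members were searched for GGAAGGAA, or its reverse complement TTCCTTCC, and for the ETS-type motif CCGGAAGT, or its reverse complement ACTTCCGG. GGAAGGAA, called the repeat below, is much shorter than the GGAA microsatellites of the study's reporter assays. Sites outside the promoter windows were not searched, and binding by EWS/FLI was not measured here. RefSeq windows from 250 bases before to 50 after the start site, on GRCh38.p14 and not the build of the files, were matched for 60 of 71 members, giving 94 windows. The repeat occurred in 5 of them (5.32%), those of *EFNA4*, *NTNG1*, *PLXNB1*, *SLIT3* and *UNC5A*, against 3.67% of 35116 windows of 27305 genes, and CCGGAAGT in 0 against 4.14%. The windows of *UNC5A* and *EFNA4* are shown because both genes hold the repeat, marked by capitals, and were called higher in iLuc in each of 24 alternatives. That of *PLXNA2* is shown because its decrease in iLuc against iEF was the largest among the members picked by rule. *EFNA4*, which can also share reads with the readthrough gene over part of its exons, read 6.36, 6.87 and 5.88 CPM in iLuc and 2.00, 3.98 and 3.00 in iEF (log2 difference 1.16, SE 0.21, adjusted p = 0.000351). The match began at −148 from the start site in *UNC5A* and −192 in *EFNA4*, and the *PLXNA2* window held neither motif. *NTNG1* also holds the repeat and was called higher in iLuc by 0.23 (adjusted p = 0.0459), but its call was lost in 16 of 24 alternatives and its window is not shown. *PLXNB1* and *SLIT3* hold the repeat too and were not called between iLuc and iEF, and *SLIT3* had 0 counts in every iLuc library.
UNC5A, chr5:176810309-176810608, plus strand: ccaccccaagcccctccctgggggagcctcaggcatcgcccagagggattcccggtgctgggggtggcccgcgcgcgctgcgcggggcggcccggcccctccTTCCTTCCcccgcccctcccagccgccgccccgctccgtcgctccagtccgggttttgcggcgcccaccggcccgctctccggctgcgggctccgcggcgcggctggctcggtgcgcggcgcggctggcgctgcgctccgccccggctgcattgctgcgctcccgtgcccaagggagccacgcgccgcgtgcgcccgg
EFNA4, chr1:155063490-155063789, plus strand: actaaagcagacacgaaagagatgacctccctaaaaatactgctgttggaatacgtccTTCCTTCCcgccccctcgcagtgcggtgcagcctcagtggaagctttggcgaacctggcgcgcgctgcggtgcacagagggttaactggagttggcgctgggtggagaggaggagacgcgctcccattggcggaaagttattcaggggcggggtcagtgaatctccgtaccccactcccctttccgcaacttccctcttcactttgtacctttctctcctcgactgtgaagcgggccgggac
PLXNA2, chr1:208244335-208244634, minus strand: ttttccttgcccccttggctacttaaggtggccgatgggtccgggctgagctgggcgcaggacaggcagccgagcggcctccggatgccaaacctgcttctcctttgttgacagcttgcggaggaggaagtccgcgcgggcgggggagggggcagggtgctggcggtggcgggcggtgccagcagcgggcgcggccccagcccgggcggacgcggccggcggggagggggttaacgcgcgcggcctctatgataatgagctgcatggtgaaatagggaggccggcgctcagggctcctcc

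Genes that act beside these ligands and receptors were counted from fixed lists. Of 37 tested intracellular effectors of guidance signals, 9 were higher and 18 lower in iLuc than in iEF, 6 and 18 with WT-EF, and 6 and 6 with DAF. Over all genes the shares higher and lower were 19.5% and 22.1%, 12.9% and 17.0%, and 5.00% and 6.19% in the same order. *MICAL2*, an actin-oxidising enzyme downstream of plexins, differed by −6.28 on the log2 scale (SE 0.48, adjusted p = 9.74e-08), and *NGEF*, the exchange factor ephexin that acts below EphA receptors, differed by −4.18 (SE 0.21, adjusted p = 2.19e-09). In the other direction *DPYSL5*, a collapsin response mediator, was 3.15 higher (SE 0.30, adjusted p = 7.61e-07) and *TIAM1*, a Rac exchange factor, 2.38 higher (SE 0.22, adjusted p = 5.40e-07). Among 11 tested adhesion and extracellular partners, 4 were higher and 4 lower in iLuc (19.5% and 22.1% of all genes), with *L1CAM*, an adhesion molecule that associates with NRP1, at −6.44 (SE 0.27, adjusted p = 7.90e-10), and *NEO1*, a *DCC* relative, at 1.64 (SE 0.11, adjusted p = 2.36e-08).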

How the data were processed

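RNA-seq had been performed on total RNA from A673 cells in 15 libraries (ScriptSeq libraries, paired-end reads). The authors aligned the reads with STAR to hg19 (version 2.5.1b in the submitters' processing notes, whereas the study's methods name an earlier release) and deposited whole-number counts per gene from htseq-count. They also deposited a table of batch-adjusted signal values (ComBat) for 27002 genes. A further table holds the authors' own fold changes and p-values and was not used, and 3 count columns that no sample's label matched were left out. Strand setting and annotation release are not given in the sources used here.

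The deposited counts were scaled by TMM and tested with edgeR 4.0.16 (R 4.3.3, quasi-likelihood) over 28793 genes averaging at least 1 count per library. All 15 libraries shared a fit with group and replicate number as terms, as the study adjusted each replicate set, with Benjamini-Hochberg adjustment per comparison. Depth ran from 28659475 to 41859880 counts. Same-numbered libraries deviated together from their group means (median r = 0.174 over 30 pairs, lowest −0.195, across 13178 genes). The median was −0.0846 for 60 other pairs, but centring on group means ties this value to the first, so it is no separate control.

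Values in every library are given for the 3 largest increases and decreases of each comparison among members called with an absolute log2 fold change over 1, at least 50 counts on average and 1 direction in all replicate sets, and for members called in DAF or Δ22 against iEF with at least 50 counts. The symbol rule for the members used no measured value, but it and the lists were chosen with earlier results of these data known. The fit was tested on simulated data. DESeq2 1.42.0, its size factors, other filters, no block, limma 3.58.1 on log2 of the batch-adjusted values plus 1, and leaving out libraries were the alternatives. Promoters are RefSeq's on GRCh38.p14.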

Additional observations from a re-analysis of the deposited data

How the results depend on the processing

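Of 183 calls among the members over 7 comparisons, 104 held in all of the 24 alternatives that tested them, 79 were lost in at least 1 and 0 changed direction. Some members with few counts were not tested in all 24, such as *SEMA5A* in iLuc against iEF, tested in 23. The calls that held number 39 of 49 for iLuc against iEF, 21 of 35 for WT-EF against iEF, 23 of 39 for WT-EF against DAF, 15 of 31 for WT-EF against iLuc, 5 of 18 for DAF against iEF, 1 of 7 for DAF against Δ22 and 0 of 4 for Δ22 against iEF. The cause of the losses was not tested, except that leaving out a replicate set removes 5 libraries. Most calls were lost without replicate 2 (69) and without replicate 1 (51).

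The counts of members called higher or lower stayed within 1.5 times the reported count under other settings of the fit, apart from these. For Δ22 against iEF, 2 lower became 5 by DESeq2, 5 with no filter on low counts, 1 without the replicate block and 1 by limma on the batch-adjusted values, and 2 higher became 5 with no filter. For DAF against Δ22, 5 higher became 8 by DESeq2, 9 with no filter and 2 without the replicate block, and 2 lower became 7 with no filter and 0 without the block by edgeR (8 at an unadjusted p, 3 by DESeq2). For DAF against iEF, 8 lower became 4 without the block and 4 by limma. The replicate block took no other count past that range. By limma the median of all genes moved from 0.04 to 0.20 for iLuc against iEF, from −0.01 to 0.17 for WT-EF against iEF and from −0.01 to 0.11 for WT-EF against DAF on the log2 scale.

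With libraries left out, counts of members called higher ranged from 17 to 21 for iLuc against iEF, 9 to 18 for WT-EF against iEF, 0 to 3 for Δ22 against iEF, 5 to 12 for DAF against iEF, 13 to 25 for WT-EF against iLuc, 8 to 16 for WT-EF against DAF and 1 to 7 for DAF against Δ22. Counts lower ranged from 22 to 29, 14 to 22, 0 to 4, 1 to 10, 3 to 13, 16 to 24 and 0 to 4 in the same order. Among single libraries, the count of 8 lower in DAF against iEF became 3 without DAF replicate 2, 4 without DAF replicate 3, and 5 without DAF replicate 1 or iEF replicate 1, 2 or 3. Without WT-EF replicate 2 the 10 lower calls of WT-EF against iLuc became 6, and without DAF replicate 3 the 15 higher calls of WT-EF against DAF became 9. For DAF against Δ22, the count of 5 higher became 2 without Δ22 replicate 1, DAF replicate 2 or DAF replicate 3 and 3 without Δ22 replicate 2 or 3, and that of 2 lower became 0 without Δ22 replicate 3, DAF replicate 2 or DAF replicate 3 by edgeR (6, 5 and 9 at an unadjusted p), 1 without iLuc replicate 1 or 3 or Δ22 replicate 1 or 2 and 4 without WT-EF replicate 3. DESeq2 was not run on fewer libraries. For Δ22 against iEF, the count of 2 lower became 1 without any 1 library of iEF or Δ22 or without DAF replicate 2 or 3.

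Few counts limit *SLIT3*, *SEMA5A*, *SEMA5B*, *ROBO4* and *PLXNB3*, and all differences rest on 3 libraries a group of 1 cell line.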
